A study of Mus musculus with 14 samples.

Results

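Egr1, Egr2, Egr3, Nr4a1, Nr4a2, Nr4a3, Ier2, Ier3 and Ier5 are 9 immediate early genes, 3 each of the Egr, Nr4a and Ier families, and their messenger RNA was followed in long-term hematopoietic stem cells (LT-HSCs) before and after transplantation. They were chosen by symbol out of the 55450 gene identifiers counted in 14 libraries, and all 9 were among the 16878 genes with enough reads to be tested. Egr2, Egr3 and Nr4a3 passed that filter only through the libraries before transplantation, where they were high, and held 33, 26 and 22 reads in the 6 libraries after it. Each library came from 5000 sorted bone marrow cells of female C57BL/6 mice that lacked lineage markers and CD48 and carried Sca-1, c-Kit and CD150. The Selp low group (4 libraries) and the Selp high group (4 libraries) held cells with low or high surface P-selectin, the adhesion molecule encoded by Selp, from 4 mice older than 24 months. The Selp low-derived group and the Selp high-derived group (3 libraries each) held CD45.2+ cells of the donor that were sorted 16 weeks after 1000 cells of either kind had been given to lethally irradiated recipients aged 10 to 16 weeks. The labels name no engineered allele, and no group held cells from young donors. The gate after transplantation did not use P-selectin, so the derived groups are named by the cells that were put in. Transplantation, the age of the host and the time and gate of the sort all changed together between the stages and cannot be told apart. The labels do not say whether the libraries after transplantation came from different recipients.

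Immediate early genes are transcribed in response to growth factors, cytokines, adhesion and stress without any need for newly made protein, because the factors that switch them on, such as SRF with its ELK partners and CREB, are already present and only need to be phosphorylated. Egr1, Egr2 and Egr3 encode zinc finger transcription factors, and Egr1 is known as a gene that keeps hematopoietic stem cells quiescent and in their niche. Nr4a1 (Nur77), Nr4a2 (Nurr1) and Nr4a3 (Nor1) encode orphan nuclear receptors, of which Nr4a1 and Nr4a3 are known to restrain stem cell proliferation and to suppress myeloid leukaemia. Ier2, Ier3 and Ier5 share a name given for their rapid induction: Ier2 and Ier5 encode related nuclear regulators, and Ier3 encodes an unrelated protein that modulates cell survival. Transcripts of such genes are also known to rise while cells are taken out of a tissue.

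The libraries held 22374794 to 38216775 reads assigned to genes. All 10 markers listed for LT-HSCs were detected, with a summed level of 4393 to 5381 CPM (counts relative to library size after scaling, as edgeR gives them) before and 3109 to 4325 CPM after transplantation. This sum was thus lower after transplantation, with no overlap of the stages. Transcripts of neutrophils, which the lineage gate should remove, varied widely between libraries. The 10 neutrophil markers summed to 14590 and 19690 CPM in Selp low and Selp high replicate 4, both from mouse 4, against 280.4 to 5876 CPM in the other 6 libraries before transplantation, and to 12240 CPM in Selp low-derived replicate 2 against 349.8 to 2650 CPM in the other 5 after it. Markers of T and NK cells (8 genes) summed to 139 to 313 CPM before and 86.5 to 126 CPM after transplantation, so they moved with the stage as well. The part of these cells in the results was not tested, apart from the values given without the libraries concerned. In such bulk samples, fewer cells expressing a gene and less RNA per cell cannot be told apart.

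All 9 genes fell between the stages. In the mean of both inputs, edgeR's quasi-likelihood test called 9 of 9 lower after transplantation at a Benjamini-Hochberg adjusted p under 0.05, whereas 14.6% of all tested genes were called lower. That fit took the 8 libraries before transplantation as independent, although they were pairs from 4 mice. With the mouse as a block, limma voom called 8 of 9 members and 2047 of 16878 genes lower. The exception was Egr3 (adjusted p = 0.066 by limma voom). Falls ran from 2.14-fold for Nr4a2 to a fitted 89.5-fold for Egr3, of which 4 derived libraries held no read, with a median log2 change of -4.10, against -0.01 over all genes. The fitted fold of Egr3 was 718 without Selp low-derived replicate 2, 269 without Selp high-derived replicate 3 and 51.8 without Selp high replicate 4. Because the low level of Egr2, Egr3 and Nr4a3 in the derived cells is part of what their calls rest on, the fall was also counted over the genes that pass the filter on the derived libraries alone. There 6 of 6 members were called lower, with a median of -2.73, as were 13.8% of 15426 genes. All 6 libraries after transplantation lay below all 8 before it for 8 of the 9 genes, as they did for 5.47% of all genes. Nr4a2 was the exception, with 1 library after transplantation above the lowest before it. The 8 include Egr2, Egr3 and Nr4a3, for which passing the filter only through the libraries before transplantation favours this pattern. Over the genes that pass on the derived libraries alone, the lack of overlap was not counted. Together the 9 genes took 0.352 to 0.899% of the assigned reads before transplantation and 0.0324 to 0.108% after it.

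**Figure D1:**
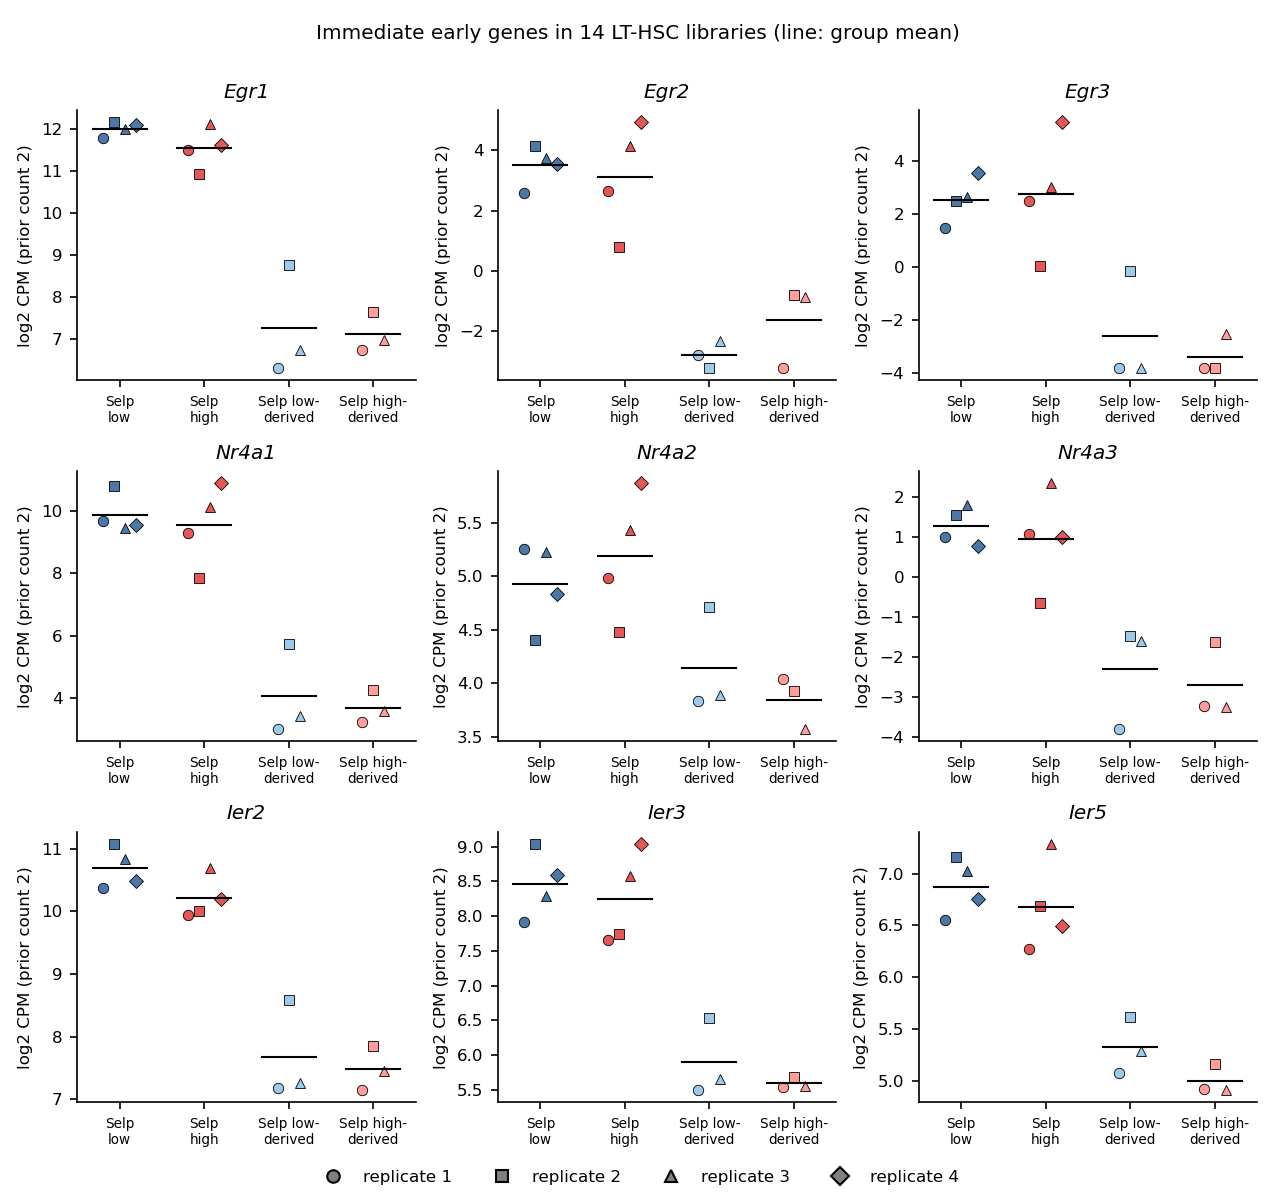
Level of each gene in each of the 14 LT-HSC libraries, as log2 CPM with a prior count of 2 (vertical axis, scaled separately for each gene), by group (horizontal axis); symbols mark replicate numbers and lines the group means. For 8 of 9 genes the 6 derived libraries lie below the 8 libraries sorted before transplantation, and Selp low-derived replicate 2 is the highest of the derived libraries for 8 of 9. Egr2, Egr3 and Nr4a3, which passed the filter only through the libraries before transplantation, had few reads in the derived ones.

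Egr1 (ENSMUSG00000038418.7; GRCm38 chromosome 18, 34859823 to 34864984, plus strand) was one of the most abundant messengers of these cells before transplantation. It stood at 3493, 4552, 4106 and 4341 CPM in the 4 Selp low libraries and at 2885, 1923, 4466 and 3114 CPM in the 4 Selp high libraries. After transplantation it stood at 78.7, 433 and 106 CPM in the Selp low-derived and at 106, 199 and 125 CPM in the Selp high-derived libraries. The lowest library before transplantation, Selp high replicate 2, was still above the highest one after it. The fall was 20.8-fold (log2 change -4.38 ± 0.39, adjusted p = 5.1e-06 by edgeR). Relative to exon length, Egr1 ranked between 18 and 52 of the tested genes before and between 488 and 3769 after transplantation.

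Egr2 (ENSMUSG00000037868.15; chromosome 10, 67535475 to 67542188, plus strand) and Egr3 (ENSMUSG00000033730.4; chromosome 14, 70077203 to 70082614, plus strand) were far less abundant and fell to the limit of detection. Egr2 had 5.87, 17.5, 13.3 and 11.7 CPM in Selp low and 6.16, 1.64, 17.7 and 30.3 CPM in Selp high libraries. Its read counts after transplantation were 2, 1 and 3 in Selp low-derived and 1, 12 and 14 in Selp high-derived libraries, where 3 reads correspond to 0.101 to 0.129 CPM. No library overlapped between the stages, and the 2 derived libraries with more than 3 reads were both Selp high-derived. Pooled over libraries, Egr2 was 162-fold lower in Selp low-derived than in Selp low cells (exact 95% interval 74.1 to 441, counting error only) and 41.8-fold lower in Selp high-derived than in Selp high cells (28.6 to 63.6), or 26.5-fold without Selp high replicate 4. Over both inputs the fitted log2 change was -6.29 ± 0.74 (adjusted p = 4.1e-05 by edgeR).

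Egr3 had 2.73, 5.54, 6.21 and 11.5 CPM in Selp low and 5.55, 0.972, 7.99 and 43.7 CPM in Selp high libraries, a spread that set replicate 4 of Selp high far above the rest. After transplantation it had 0, 23 and 0 reads in Selp low-derived and 0, 0 and 3 reads in Selp high-derived libraries. The 23 reads, or 0.831 CPM, came from Selp low-derived replicate 2, and even they lay below the lowest library before transplantation. From Selp high to Selp high-derived cells, pooled Egr3 was 382-fold lower (exact 95% interval 130 to 1854, counting error only), and from Selp low to Selp low-derived cells 21.9-fold lower (14.5 to 34.7). Single libraries set these values: the first was 134-fold without Selp high replicate 4, 250.3-fold without Selp high-derived replicate 1 and at least 243-fold without Selp high-derived replicate 3, and with replicate 1 of Selp low-derived left out the second was 14.2-fold, and with replicate 2 left out at least 108-fold. Where the derived libraries left held no read, the bound takes 3 reads over the group. The fitted log2 change over both inputs was -6.48 ± 1.10 (adjusted p = 6.6e-04 by edgeR), a value that depends on the prior count because 4 libraries held no read. It ranged from -9.49 without Selp low-derived replicate 2 to -5.69 without Selp high replicate 4, and was -8.07 without Selp high-derived replicate 3. Egr1 supplied 97.4 to 99.8% of the CPM per kb of the 3 Egr genes before and 99.4 to 99.96% after transplantation, so the family's level was that of Egr1 throughout.

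Ier2 (ENSMUSG00000053560.4; chromosome 8, 84661331 to 84662852, minus strand) overlapped with Egr1 in level per kb of exon before transplantation and kept more of its level after it. Its values were 1329, 2149, 1824 and 1442 CPM in Selp low, 982, 1026, 1657 and 1179 CPM in the Selp high, 146, 384 and 153 CPM in Selp low-derived and 142, 230 and 175 CPM in Selp high-derived libraries. The stages did not overlap. Ier2 fell 7.02-fold (log2 change -2.81 ± 0.25, adjusted p = 4.6e-06 by edgeR), and it still ranked between 117 and 543 of the tested genes by CPM per kb in the derived cells, after 6 to 33 before. The ratio of Egr1 to Ier2 per kb was 0.636 to 1.02 before and 0.183 to 0.382 after transplantation, with no overlap.

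Ier3 (ENSMUSG00000003541.6; chromosome 17, 35821684 to 35822923, plus strand) stood at 242, 524, 313 and 384 CPM in Selp low, 201, 214, 381 and 523 CPM in the Selp high, 45.2, 92.4 and 50.6 CPM in Selp low-derived and 46.7, 51.3 and 46.8 CPM in Selp high-derived libraries. Selp low-derived replicate 2 was the highest derived library, the other 5 lay between 45.2 and 51.3 CPM, and all 6 were below every library sorted before transplantation. The fall was 6.31-fold (log2 change -2.66 ± 0.26, adjusted p = 1.1e-05 by edgeR). Ier5 (ENSMUSG00000056708.5; chromosome 1, 155096361 to 155099636, minus strand) had 93.5, 143, 130 and 108 CPM in Selp low, 77.0, 103, 156 and 89.8 CPM in the Selp high, 33.7, 49.1 and 39.1 CPM in Selp low-derived and 30.2, 35.7 and 30.0 CPM in Selp high-derived libraries. It fell 3.12-fold (log2 change -1.64 ± 0.16, adjusted p = 1.1e-05 by edgeR) without overlap of the stages. Within the family the ratio of Ier2 to Ier5 per kb was 21.5 to 32.3 before and 8.45 to 16.9 after transplantation.

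The Nr4a genes share a feature at their starts, which is why their promoter windows are shown, each 300 bases long and written 5′ to 3′ on the strand of the gene, from 250 bases before the start of transcription to 50 bases after it (RefSeq, GRCm38.p6). Capitals mark TGACG, the core of the cAMP response element that CREB binds, and GCGNGGGCG, the motif of the Egr proteins, each on either strand. Nr4a1 is at chr15:101266596-101266895 (plus strand), Nr4a2 at chr2:57123954-57124253 (minus strand) and Nr4a3 at chr4:48045055-48045354 (plus strand).
Nr4a1: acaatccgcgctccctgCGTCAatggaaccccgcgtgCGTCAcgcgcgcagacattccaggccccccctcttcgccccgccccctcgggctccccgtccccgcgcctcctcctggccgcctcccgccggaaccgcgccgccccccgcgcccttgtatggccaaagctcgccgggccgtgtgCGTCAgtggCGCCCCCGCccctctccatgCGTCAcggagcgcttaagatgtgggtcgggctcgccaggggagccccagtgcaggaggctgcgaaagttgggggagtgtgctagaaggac
Nr4a2: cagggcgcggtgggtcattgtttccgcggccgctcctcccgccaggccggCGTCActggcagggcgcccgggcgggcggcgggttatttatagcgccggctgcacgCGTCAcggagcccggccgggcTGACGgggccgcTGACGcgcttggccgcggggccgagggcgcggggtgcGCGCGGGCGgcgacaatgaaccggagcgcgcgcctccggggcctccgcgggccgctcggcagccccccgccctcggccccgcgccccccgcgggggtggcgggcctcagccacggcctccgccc
Nr4a3: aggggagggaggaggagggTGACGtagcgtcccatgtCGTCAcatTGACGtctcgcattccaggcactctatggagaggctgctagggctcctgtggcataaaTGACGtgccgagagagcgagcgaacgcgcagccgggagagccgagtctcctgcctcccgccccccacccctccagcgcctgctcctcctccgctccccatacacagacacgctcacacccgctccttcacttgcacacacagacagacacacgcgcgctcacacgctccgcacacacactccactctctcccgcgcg
Each of the 3 windows holds 4 matches to TGACG. At least 4 are held by 76 of the 32851 windows searched (0.231%), at least 3 by 1.035% and at least 1 by 20.8%. The threshold of 4 is the count of these 3 windows themselves. The Egr motif lies from base -60 to -52 relative to the start in Nr4a1 and from -74 to -66 in Nr4a2, and 5.55% of all windows hold it. The relation of these matches to the falls of the 3 genes was not tested.

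The Egr2 window is shown because it holds the other classical element of immediate early promoters, the CArG box that SRF binds. It lies at chr10:67537619-67537918 (plus strand, RefSeq, GRCm38.p6) and is 1 of 5 windows that RefSeq's starts give for Egr2, the first of 3 overlapping ones that hold the same matches; capitals mark the CArG box and TGACG, on either strand.
Egr2: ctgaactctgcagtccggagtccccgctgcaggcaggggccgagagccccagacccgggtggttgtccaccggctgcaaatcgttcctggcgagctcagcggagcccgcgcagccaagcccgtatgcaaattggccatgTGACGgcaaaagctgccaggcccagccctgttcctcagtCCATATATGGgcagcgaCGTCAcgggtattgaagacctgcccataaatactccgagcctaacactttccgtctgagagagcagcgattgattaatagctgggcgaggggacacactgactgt
The CArG box spans bases -72 to -63 before the start, and 1.63% of all windows hold one, as does at least 1 window of 1.81% of the genes searched. Of the other windows of Egr2, that at chr10:67537316-67537615 holds a different CArG box, CCTTTTTTGG, and no TGACG, and that at chr10:67535249-67535548 holds no match to any motif searched. In the window shown TGACG is present at 2 places, on either side of the box. The windows of Ier3 and Ier5 hold no match to these motifs, nor to the whole cAMP response element TGACGTCA (which contains TGACG), the AP-1 motif TGANTCA or the Nr4a motif AAAGGTCA, which says only that these letters are not in these windows. Windows were at hand for 6 of the 9 genes, without Egr1, Egr3 and Ier2. A match is a description of the sequence and not evidence that a factor binds there.

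Nr4a1 (ENSMUSG00000023034.7; chromosome 15, 101254269 to 101274795, plus strand) had 815, 1776, 706 and 743 CPM in Selp low and 625, 231, 1106 and 1888 CPM in Selp high libraries. After transplantation it had 8.06, 53.9 and 10.8 CPM in Selp low-derived and 9.53, 19.2 and 12.1 CPM in Selp high-derived libraries. Its highest derived library was thus below the lowest one before transplantation, although the latter group alone spread from 231 to 1888 CPM. Nr4a1 fell 54.3-fold (log2 change -5.76 ± 0.61, adjusted p = 1.8e-05 by edgeR), the largest fall among the members that kept at least 220 reads in every derived library, and 87.2-fold without Selp low-derived replicate 2, its highest derived library.

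Nr4a2 (ENSMUSG00000026826.13; chromosome 2, 57106830 to 57124003, minus strand) had 38.2, 21.1, 37.4 and 28.5 CPM in Selp low, 31.7, 22.2, 43.1 and 58.4 CPM in the Selp high, 14.2, 26.2 and 14.7 CPM in Selp low-derived and 16.4, 15.2 and 11.8 CPM in Selp high-derived libraries. Selp low-derived replicate 2, at 26.2 CPM, was above Selp low replicate 2 and Selp high replicate 2. The fall was 2.14-fold over both inputs (log2 change -1.10 ± 0.23, adjusted p = 0.0027 by edgeR). Nr4a3 (ENSMUSG00000028341.9; chromosome 4, 48045153 to 48086447, plus strand) was the least abundant member, with 1.92, 2.84, 3.40 and 1.63 CPM in Selp low and 2.03, 0.561, 4.96 and 1.90 CPM in Selp high libraries. It had 0, 8 and 6 reads in Selp low-derived and 1, 6 and 1 reads in Selp high-derived libraries, all below the lowest library before transplantation. Pooled, it was 13.7-fold lower after transplantation of Selp low cells (exact 95% interval 8.03 to 25.3, counting error only) and 24.7-fold lower after transplantation of Selp high cells (12.4 to 57.9), with a fitted log2 change over both inputs of -4.10 ± 0.67 (adjusted p = 4.9e-04 by edgeR). With replicate 1 of Selp low-derived left out the first of these folds was 8.91 and with replicate 2 left out 20.6, and the second was 15.1 without Selp high replicate 3 and 70.1 without Selp high-derived replicate 2. Without the last of these libraries the fitted change over both inputs was -4.83.

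The make-up of the Nr4a family differed between the stages. Per kb of exon, Nr4a1 was 12 to 97.5 times the level of Nr4a2 in the 8 libraries before transplantation and 0.658 to 2.38 times its level in the 6 after it. Nr4a2 made up 1.01 to 7.68% of the summed CPM per kb of the 3 genes before and 29.5 to 60.3% after transplantation, with no overlap.

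**Figure D2:**
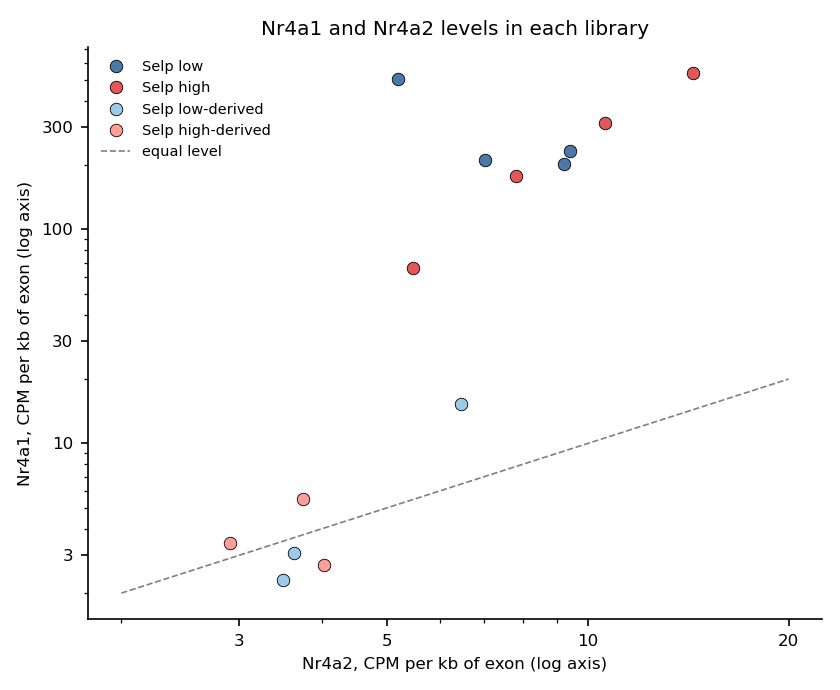
Nr4a1 (vertical log axis) against Nr4a2 (horizontal log axis) in each of the 14 libraries, both in CPM per kb of exon; colours mark the groups and the dashed line equal levels. The libraries sorted before transplantation lie 12- to 97.5-fold above the line in the vertical direction, and the derived ones within 0.658 to 2.38 of it.

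Ordered by CPM per kb before transplantation, the members ran from Ier2 (645 to 1412) and Egr1 (429 to 1015), through Ier3 (178 to 463) and Nr4a1 (65.8 to 538), to Ier5 (23.5 to 47.5), Nr4a2 (5.19 to 14.4), Egr2 (0.484 to 8.91), Egr3 (0.221 to 9.91) and Nr4a3 (0.0937 to 0.828). Each range overlapped that of the next gene in this order of means, except that Ier5 overlapped with neither neighbour. After transplantation Ier2 (93.2 to 253) was followed by Ier3 (39.9 to 81.7) and Egr1 (17.5 to 96.5), then by Ier5 (9.16 to 15.0), Nr4a1 (2.30 to 15.4) and Nr4a2 (2.91 to 6.45), with Egr2, Egr3 and Nr4a3 at 0.189 or below. By their means Egr1 thus stood below Ier3 and Nr4a1 below Ier5, with overlapping ranges in both pairs, and Egr1 did not overlap with Ier5.

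The fall was also measured for each input alone, in separate groups of libraries. From Selp low to Selp low-derived cells 8 of 9 members were called lower by edgeR, against 6.46% of all genes. From Selp high to Selp high-derived cells 9 of 9 were, against 7.62%. These counts include Egr2, Egr3 and Nr4a3, which passed the filter only through the libraries before transplantation. Over the genes that pass on the derived libraries alone no count was made by input. Egr1 changed by -4.33 ± 0.55 and -4.43 ± 0.55 on the log2 scale for Selp low and Selp high input, and Ier2 by -2.89 ± 0.35 and -2.73 ± 0.35. Nr4a1 changed by -5.38 ± 0.85 and -6.15 ± 0.88, Ier3 by -2.54 ± 0.37 and -2.77 ± 0.38, and Ier5 by -1.55 ± 0.23 and -1.74 ± 0.23. With Selp low input the falls were larger without Selp low-derived replicate 2, at -5.48 for Egr1, -6.74 for Nr4a1, -3.50 for Ier2 and -10.5 for Egr3. Egr2 changed by -5.36 with Selp high input, or -4.65 without Selp high replicate 4. Egr3 changed there by -8.48, or -6.89 without the same library and -11.66 without Selp high-derived replicate 3. Nr4a3 with Selp high input changed by -4.48, or -3.81 without Selp high replicate 3 and -5.94 without Selp high-derived replicate 2. For Nr4a2 the change was -0.77 ± 0.32 with Selp low input (adjusted p = 0.138 by edgeR) and -1.43 ± 0.33 with Selp high input (adjusted p = 0.0091 by edgeR). A test of the difference between the inputs called 0 of 9 members and 0.0% of all genes with edgeR. At an unadjusted p under 0.05, 0 of the 9 passed with edgeR, DESeq2 or limma voom, and 874 of 16878 genes did with edgeR. Without Selp low-derived replicate 2, 2 of 9 members and 542 of 17449 genes passed it. Without the 3 libraries richest in neutrophil markers, 2 of 9 and 858 of 17123 did, and 0 members were called in either setting. Neither Nr4a2 nor Egr3 (difference -3.99 ± 2.19, adjusted p = 0.879 by edgeR) was thus shown to depend on the input. Egr3 with Selp low input (log2 change -4.49 ± 1.34, adjusted p = 0.0445 by edgeR) lost its call when any 1 of the 4 Selp low libraries, the 3 Selp high-derived libraries, Selp low-derived replicate 1 or 3, or Selp high replicate 3 was left out, with an adjusted p of 0.0529 to 0.145. Nr4a3 with Selp low input lost it without Selp low-derived replicate 1 (adjusted p = 0.0625 by edgeR), and Nr4a2 with Selp high input without Selp high-derived replicate 3 (adjusted p = 0.0529 by edgeR). Without the 3 libraries richest in neutrophil markers, all 9 members, these 3 genes of few reads included, were called lower in both inputs and in their mean. Of 17123 genes, 1334 were called lower with Selp low input, 1549 with Selp high input and 2777 in the mean.

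**Figure D3:**
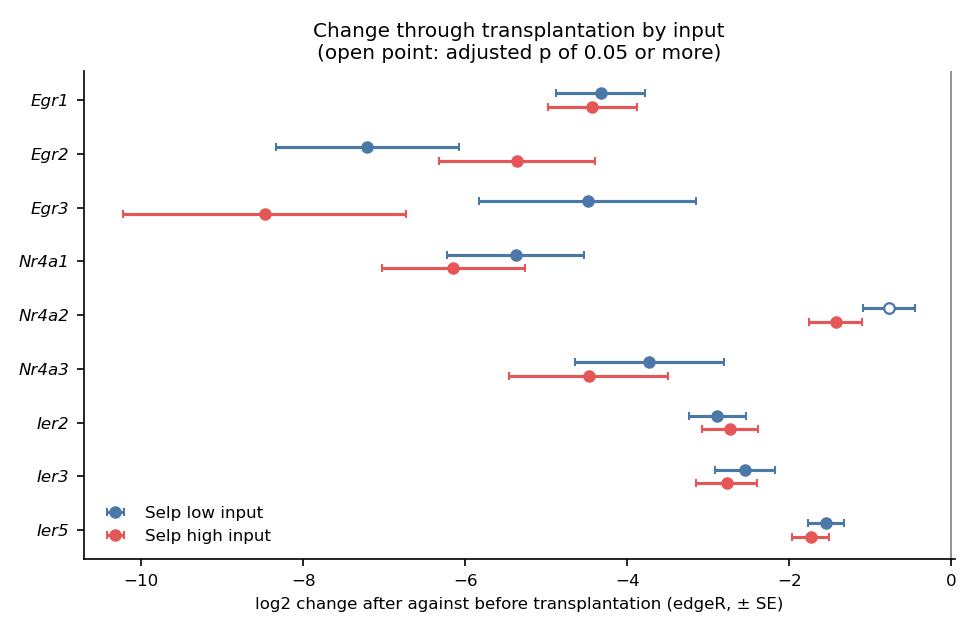
Log2 change after against before transplantation (horizontal axis, edgeR estimate ± SE) for each gene and each input; filled points are called at an adjusted p under 0.05. All estimates lie below 0, from -0.77 for Nr4a2 with Selp low input to -8.48 for Egr3 with Selp high input.

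No member was called between cells with high and low surface P-selectin before transplantation. With edgeR 0 of 9 passed the adjusted threshold, as were 0.0% of all genes, and 0 of the 9 passed an unadjusted p under 0.05 with edgeR, DESeq2 or limma voom, where 5.11% of all genes did with edgeR. With the mouse as a replicate block, edgeR still called 0 of 9, but 2 of 9 passed an unadjusted p under 0.05, as did 14.5% of all genes. They were Ier2 (-0.47, unadjusted p = 0.0090, adjusted p = 0.207 by edgeR) and Egr1 (-0.45, unadjusted p = 0.0403, adjusted p = 0.321 by edgeR). The groups overlapped for every member. Log2 changes were -0.48 ± 0.29 for Ier2, -0.41 ± 0.42 for Egr1, -0.16 ± 0.20 for Ier5, -0.15 ± 0.31 for Ier3, -0.07 ± 0.61 for Nr4a1, -0.05 ± 0.69 for Nr4a3, 0.21 ± 0.66 for Egr2, 0.31 ± 0.29 for Nr4a2 and 1.16 ± 0.97 for Egr3, with edgeR adjusted p from 0.957 to 0.996.

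Within mice the picture was uneven. Ier2 was lower in the Selp high cells of all 4 mice, with log2 differences of -0.44, -1.07, -0.14 and -0.29 in mice 1 to 4, the pattern of 1 of 9 members and of 12.2% of all genes. Mouse 2 stood apart for most members, with Selp high cells lower for 8 of 9, from -0.48 for Ier5 to -3.35 for Egr2, and a difference of 0.08 for Nr4a2. The share of all genes that were lower in that mouse was not counted, so a shift of the whole library cannot be told from one of the members. In mouse 4 the Selp high cells were instead higher for Egr3 (1.92), Nr4a1 (1.35), Egr2 (1.37) and Nr4a2 (1.03), and the other 5 members differed by -0.48 (Egr1) to 0.44 (Ier3). The direction of several small differences therefore rested on single libraries. Without Selp high replicate 4, from the mouse with the highest neutrophil marker sums, Egr3 turned to -0.43 and Egr2 to -0.51, and Egr2 also turned to -0.02 without Selp low replicate 1. Nr4a1 turned to 0.35 without Selp low replicate 2, to 0.26 without Selp high replicate 2 and to 0.09 without Selp high replicate 1, and Ier3 turned to between 0.01 and 0.07 without any 1 of the same 3 libraries. Nr4a3 turned to between 0.02 and 0.27 without Selp low replicate 2 or 3 or Selp high replicate 1, 2 or 4.

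**Figure D4:**
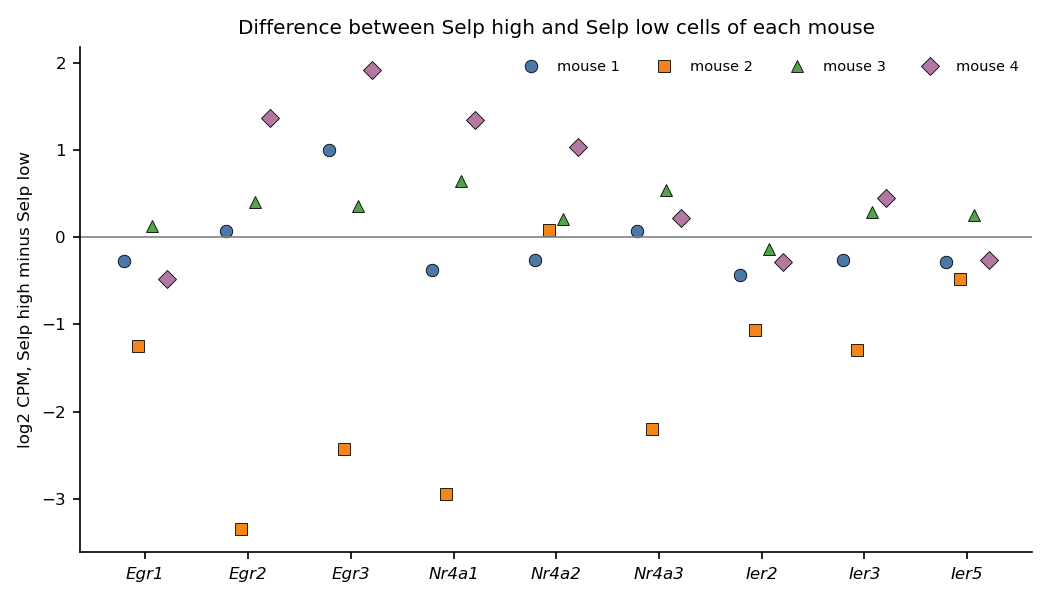
Difference in log2 CPM (prior count 2) between the Selp high and Selp low cells of each of 4 mice (vertical axis) for each gene; symbols mark the mice and the line marks no difference. Ier2 is below 0 in all 4 mice, mouse 2 is below 0 for 8 of 9 genes, and mouse 4 is above 1 for Egr2, Egr3, Nr4a1 and Nr4a2. The share of all genes below 0 in mouse 2 was not counted.

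Members differed in how much they varied among libraries of a group. Before transplantation the SD of log2 CPM within groups was 1.67 for Egr3, 1.38 for Egr2 and 1.02 for Nr4a1, against 0.302 for the median tested gene, and 0.33 for Ier2. Among the 8 libraries, Selp high replicate 2 was the lowest for 5 of 9 members, as for 12.6% of all genes. Selp high replicate 4 was the highest for 4 of 9, Egr2, Egr3, Nr4a1 and Nr4a2, as for 16.3% of all genes. After transplantation the SD was 1.58 for Egr3 and 0.218 for Ier5, against a median of 0.282. The value for Egr3 depends on the prior count, as 4 of its 6 derived libraries held no read. Of its 26 reads there, 23 came from Selp low-derived replicate 2.

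No difference by input was detectable among the derived cells either. Comparing the Selp high-derived with the Selp low-derived libraries, edgeR called 0 of 9 members and 0.0% of all genes. An unadjusted p under 0.05 was reached by 0 of the 9 with edgeR, DESeq2 or limma voom, and by 765 of 16878 genes with edgeR. Egr2, Egr3 and Nr4a3 had too few reads in these libraries to be compared: on the derived libraries alone they do not pass the filter, and 0 of the 6 others were called. Values were lower in Selp high-derived libraries for these 6, from -0.32 ± 0.33 for Ier2 to -0.84 ± 0.74 for Nr4a1, with an edgeR adjusted p of 0.980 each. These values turned largely on Selp low-derived replicate 2, which was the highest of the 6 derived libraries for 8 of 9 members, as for 26.4% of all genes. The 8 are the same 6 members and, on few reads, Egr3 and Nr4a3. The level in this library was 3.52 times the mean of the other 5 for Egr1, 4.52 times for Nr4a1, 2.27 times for Ier2, 1.92 times for Ier3, 1.81 times for Nr4a2 and 1.46 times for Ier5. For Egr2 it was 0.149 times, on 1 read. The same library had the 12240 CPM of neutrophil markers, whose part in these levels was not tested. Without it the differences were 0.64 for Egr1, 0.53 for Nr4a1, 0.28 for Ier2 and 0.01 for Ier3.

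Other immediate early genes fell with the members. Of 18 other genes of this kind listed as transcription factors, Ier5l of the Ier family and Egr4 of the Egr family among them, 17 were called lower after transplantation and 1 higher. Their median log2 change was -2.83, and 14.6% of all genes were called lower and 12.9% higher. The nuclear protein gene Csrnp1 changed by -2.94 ± 0.28, Klf2 by -5.22 ± 0.50 and the stress-induced Atf3 by -7.69 ± 0.79, while Myc rose by 0.33 ± 0.10 (adjusted p = 0.0252 by edgeR). Myc lost its call without Selp low-derived replicate 1 or 3 or Selp high-derived replicate 3 (adjusted p of 0.0571 to 0.0900 by edgeR). Without Selp low-derived replicate 2 Klf2 changed by -5.83 and Atf3 by -8.68, and without Selp high-derived replicate 2 Atf3 changed by -8.59. Egr4, named after its values were seen, changed by -9.32 ± 0.91, a value that rests on next to no reads in the derived cells. Its mean was 8.71 CPM in Selp low, 11.6 in Selp high, 0 in Selp low-derived and 0.056 in Selp high-derived libraries. Which listed genes passed the filter only through the libraries before transplantation was not counted. Among 25 immediate early genes that do not encode transcription factors 22 were called lower and 1 higher, with a median of -1.54. Ppp1r15a, which ends the block of translation under stress, changed by -2.91 ± 0.26, the survival gene Mcl1 by -1.54 ± 0.14 and the cytokine inhibitor Socs3 by -4.44 ± 0.45. The gene called higher, named after its values were seen, was the ERK phosphatase gene Dusp6 at 0.87 ± 0.14 (adjusted p = 4.7e-04 by edgeR).

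Genes upstream of the members were called about as often as other genes. Of 23 genes of the route from ERK to SRF and CREB, 4 were called lower (17.4%, against 14.6% of all genes) and 2 higher (8.70%, against 12.9%), with a median log2 change of 0.05. Mrtfa, a coactivator of SRF, rose by 0.84 ± 0.11 (adjusted p = 9.3e-05), the CREB coactivator Crtc2 changed by -0.55 ± 0.10 (adjusted p = 9.4e-04) and the ERK kinase gene Map2k1 by -0.43 ± 0.09 (adjusted p = 0.0030 by edgeR). Transcript levels do not show the phosphorylation by which this route works. Among 12 corepressors and known targets of Egr proteins 8 were called lower and 0 higher, with a median of -0.75. They included Bmi1, a Polycomb gene needed for stem cell self-renewal, at -0.73 ± 0.08 (adjusted p = 3.4e-05), the cell cycle inhibitor Cdkn1a at -3.06 ± 0.39 (adjusted p = 7.4e-05), the adhesion gene Icam1 at -0.93 ± 0.13 (adjusted p = 1.1e-04) and the corepressor Nab2 at -0.71 ± 0.15 (adjusted p = 0.0027 by edgeR). Nab1, the other corepressor, had -0.18 ± 0.09 (adjusted p = 0.128 by edgeR). Of 10 partners and linked genes of Nr4a, 1 was called lower and 1, Myc, higher (10.0% each, against 14.6% and 12.9% of all genes), with a median of -0.33. The lower one was Foxp3, at 0.268 ± 0.227 CPM in the Selp low and 0.272 ± 0.187 CPM in the Selp high group (SD, n = 4 each), 0 in all 3 Selp low-derived and 0.0365 ± 0.0340 CPM in Selp high-derived libraries (SD, n = 3), a gene of regulatory T cells whose level was near the limit of detection. Eno3 had -0.42 ± 0.15 (adjusted p = 0.0503 by edgeR).

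Heat shock genes, which respond to heat and misfolded protein, were mixed. Of 12 genes 5 were called lower (41.7%, against 14.6% of all genes) and 2 higher (16.7%, against 12.9%), with a median log2 change of -0.04. Those called lower included Hspb1 at -3.30 ± 0.32, Dnajb1 at -1.60 ± 0.17 and Bag3 at -0.57 ± 0.12. The others, named after their values were seen, were the stress-inducible Hspa1a at -2.81 ± 0.62 (adjusted p = 0.0041 by edgeR) and Hspa1b at -1.34 ± 0.32 (adjusted p = 0.0061 by edgeR). Hspa1a and Hspa1b are near-identical copies, and multimapping reads were not counted. Reads that map to both are therefore missing from their levels and from the sum of the list. By the reads that were counted, the chaperone genes Hsp90ab1 (-0.06 ± 0.09) and Hspa8 (0.09 ± 0.15), which were not called, were the most abundant of the list. The summed level of 3734 to 5549 CPM before and 4063 to 5187 CPM after transplantation is therefore mostly theirs. The 2 called higher, Hspd1 at 0.32 and Hspe1 at 0.48, lost their calls without single libraries, at an adjusted p of up to 0.0900 for Hspd1 and 0.0735 for Hspe1 by edgeR. The part of cell handling in the fall of the members was not tested.

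**Figure D5:**
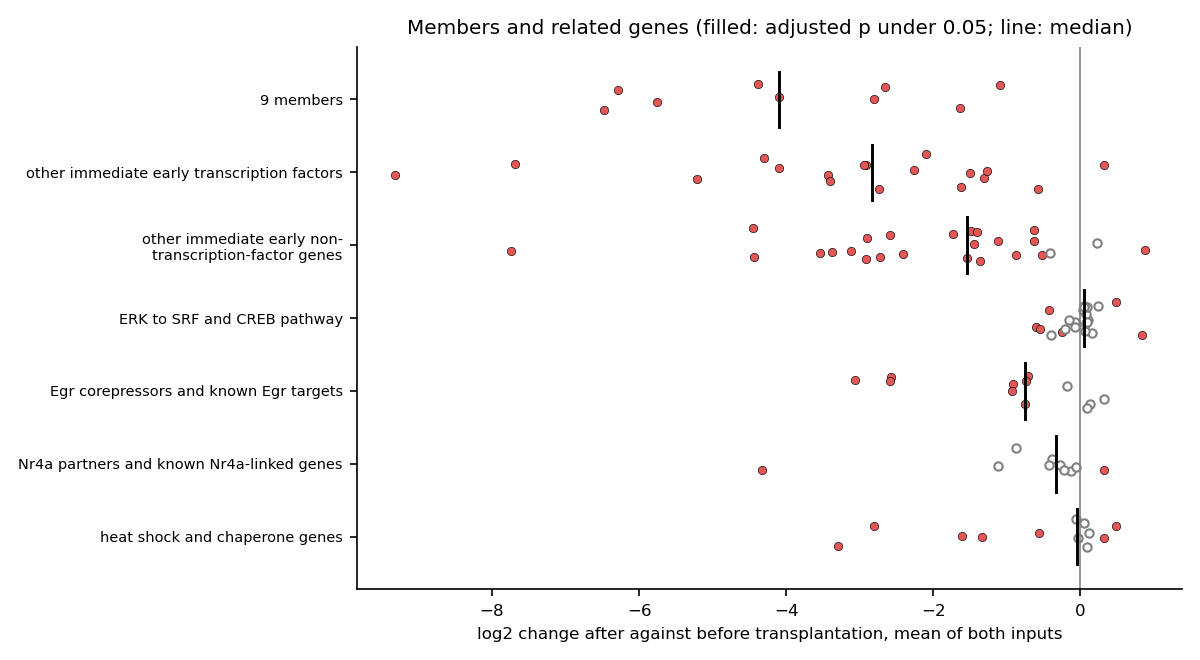
Log2 change after against before transplantation in the mean of both inputs (horizontal axis, edgeR estimate) for the 9 members and for each gene of 6 related lists (rows); filled points have an adjusted p under 0.05, vertical offsets only separate points, and black lines mark medians. The medians of the other immediate early lists are -2.83 and -1.54, and that of the ERK to SRF and CREB list is 0.05.

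In the P-selectin comparisons edgeR called 0 genes of these 6 lists. The fit used here took no account of the pairing of libraries by mouse before transplantation. With the mouse as a block, 14.5% of all genes passed an unadjusted p under 0.05 by edgeR, against 5.11% without it. Values of the listed genes with that block are not given here, so the missing calls do not show that these genes were equal. Genes with the smallest p before transplantation were Myc (-0.74 ± 0.13) and Ier5l (-0.78 ± 0.30) in the transcription factor list. Dusp2 (-0.59 ± 0.21) and Zfp36l2 (-0.27 ± 0.13) had it among the other immediate early genes. On the route from ERK it was Mrtfa (-0.39 ± 0.15), and among the Egr-linked genes Bmi1 (0.29 ± 0.11) and Id2 (0.52 ± 0.23). Among these genes of smallest p, the edgeR adjusted p was 0.330 for Myc and 0.957 for the rest. In the remaining lists they were Myc and Rxrb (-0.16 ± 0.10) for Nr4a, and Dnajb1 (0.27 ± 0.21) and Dnaja1 (0.13 ± 0.11) for heat shock, the latter pair with an edgeR adjusted p of 0.962. Myc stood at 430 ± 28.5 CPM in Selp low and 257 ± 45.9 CPM in Selp high cells (SD, n = 4 each). In the derived cells they were Fosb (-2.93 ± 1.07) and Klf2 (-1.63 ± 0.64) among the transcription factors, Pim1 (-0.87 ± 0.28) and Rhob (-0.74 ± 0.35) among the other immediate early genes, Elk4 (-0.55 ± 0.18) and Map2k2 (-0.18 ± 0.11) on the route from ERK, and Hsp90aa1 (-0.47 ± 0.18) and Hspa1b (-1.07 ± 0.47) among the heat shock genes, each with an edgeR adjusted p of 0.980. Id2 (-0.42 ± 0.27) and Nab2 (-0.31 ± 0.22) in the Egr-linked list and Cebpa (-1.19 ± 0.49) and Irf4 (-2.17 ± 1.21) in the Nr4a list had the same adjusted p.

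To find genes with the most similar course over the 14 libraries, log2 CPM values were centred on each gene's own mean and the root mean square (RMS) difference from each member was taken over protein-coding genes whose log2 CPM averaged 1 or more. Egr2, Egr3 and Nr4a3 averaged less, so they were compared with these genes but could not be found nearest to another member. The closest to Egr1 was Socs3 (RMS 0.338, against 2.36 for the median gene), then Zfp36 (0.465). Nr4a1 was closest to both Egr2 (1.02) and Egr3 (0.864), followed by Btg2 (1.07) and Ptgs2 (0.894), and Nr4a1 itself lay closest to Ptgs2 (0.597) and Klf2 (0.714). Ptgs2, which encodes the inducible prostaglandin synthase, changed by -4.91 ± 0.67 (adjusted p = 1.2e-04 by edgeR), or by -6.07 without Selp low-derived replicate 2. Nr4a3 had Junb (0.685) and Dusp1 (0.686) nearest, Ier2 had Trib1 (0.249) and Ppp1r15a (0.250), and Ier3 had Bhlhe40 (0.340) and Rhob (0.345). For the members with the smallest falls the nearest genes were Adamtsl5 (0.198) and Sgk1 (0.239) for Ier5, and Ccnl1 (0.222) and Chn1 (0.251) for Nr4a2. Among the 6 members that could be found nearest, Nr4a1 was the one that was, for Egr2 and Egr3.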

How the data were processed

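RNA of 14 LT-HSC libraries was measured by sequencing of polyA RNA, with cDNA made by template switching and libraries made by tagmentation, per the labels' protocols. The deposited values are whole-number counts of reads per gene for 55450 identifiers, made by the authors. The submitters' processing notes name STAR 2.7.0d, Picard 2.23.0, FastQC 0.11.9 and the build GRCm38. The release of the annotation and the options of counting were not given in the sources used here. Every identifier matched GENCODE symbols and positions of GRCm38. The unstranded counts were taken, and no member overlaps another annotated gene on either strand. Unmapped, multimapping, unassigned and ambiguous reads (3.35 to 5.06%, 9.93 to 13.4%, 3.37 to 5.13% and 4.20 to 4.79%) stayed out of library sizes.

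The tests used edgeR 4.0.16 in R 4.3.3, with TMM factors of 0.963 to 1.042, a minimum count of 10 in its expression filter, and 1 fit of 4 group means over all libraries (10 residual degrees of freedom, biological coefficient of variation 0.322). A call is a Benjamini-Hochberg adjusted p under 0.05 over 16878 genes. Levels are CPM after TMM scaling, per kb of merged exons where genes are compared, and log2 CPM has a prior count of 2. The fit was run on simulated data with independent libraries, and the outcome is not given here. That run held no pairs from a mouse and no neutrophil-rich libraries, so it says nothing about their effect on the calls. Groups followed the labels, and p-values measure only how these libraries spread, which may be technical. Intervals on pooled counts cover counting error only.

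Replicate numbers paired the libraries before transplantation: deviations from group means correlated with r of 0.289 to 0.527 between libraries of 1 number, taken as a mouse, and -0.401 to 0.049 between others. After transplantation r was -0.051 to 0.025 between libraries of 1 number, so these were not paired. Alternatives were DESeq2 1.42.0, limma 3.58.1 voom, other size factors, no filter, only the groups compared, a replicate block, each library left out, and the neutrophil-rich libraries left out. The members, lists and rule for naming genes (all members, the genes of smallest p in each list, the nearest 2 genes to each member) were chosen with earlier results of these data known. Listed names Cyr61, Ctgf, Mkl1 and Mkl2 were matched through RefSeq synonyms.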

Additional observations from a re-analysis of the deposited data

Results flagged for a closer look

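Of the 18 values of a member in a group of 4 libraries, 2 had one library far from the others by Dixon's criterion, where chance alone marks about 1 in 20 such groups. Egr3 stood at 43.66 CPM in Selp high replicate 4, a gap to the next library of 0.836 of the group's range against a critical value of 0.829. Nr4a1 stood at 1776 CPM in Selp low replicate 2, with a ratio of 0.899. Neutrophil markers summed to 19690 CPM in the first of these libraries and to 3726 CPM in the second, and their part in these values was not tested.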

How the results depend on the processing

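The fall of the 9 members over both inputs kept its direction under every alternative run. It kept its call except for Egr3 with the replicate block, fitted here with limma voom (adjusted p = 0.066, so 8 of 9 were called). With limma voom Egr2 and Egr3 lost their calls in each input taken alone, and without the 3 neutrophil-rich libraries Nr4a2 gained one with Selp low input (-1.16, adjusted p = 0.0278 by edgeR). Calls over all genes moved as follows: before transplantation 11 with DESeq2, 1 without the filter, 2 with the replicate block and 0 to 2 without single libraries; in derived cells 25 with DESeq2, 2 with the block and 1 without mouse 4; for the difference between inputs 11 with DESeq2; with Selp low input 1936, but 2999 without mouse 4 and 803 to 2723 without single libraries; with Selp high input 2573, but 1423 to 2827 without single libraries. The alternative without mouse 4 was chosen after seeing the data.

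Directions that turned were all of values not called. Egr2 between Selp high and Selp low was -0.40 with voom, -0.16 with the replicate block, and -0.52 without mouse 4 or the neutrophil-rich libraries. Without those libraries the derived groups differed by 0.64 for Egr1, 3.19 for Egr3, 0.53 for Nr4a1, 0.0005376 for Nr4a2, 0.29 for Ier2 and 0.011 for Ier3, and the difference between inputs was 1.03 for Egr1, 3.18 for Egr3, 1.28 for Nr4a1 and 0.45 for Ier3. That difference was also 0.31 with voom and 0.32 with the replicate block for Egr1, and 0.059 without mouse 4 for Ier3. Without single libraries the Selp difference ranged from -0.51 to 0.58 for Egr2, -0.43 to 1.59 for Egr3, -0.63 to 0.35 for Nr4a1, -0.71 to 0.27 for Nr4a3 and -0.46 to 0.075 for Ier3. Among derived cells it ranged from -0.91 to 0.64 for Egr1, -6.01 to 3.18 for Egr3, -1.25 to 0.53 for Nr4a1, -0.56 to 0.28 for Ier2 and -0.57 to 0.010 for Ier3. The difference between inputs ranged from -0.49 to 1.05 for Egr1, -7.17 to 2.02 for Egr3, -1.19 to 0.60 for Nr4a1, -0.087 to 0.76 for Ier2, -0.45 to 0.16 for Ier3 and -0.32 to 0.053 for Ier5. The cause was not tested. Depth limits Egr2, Egr3 and Nr4a3 after transplantation, where most libraries held few or no reads.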
